A study of Homo sapiens with 4 samples.

Results

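Tetraspanins are membrane proteins that cross the membrane several times and gather integrins, proteases, receptors and one another into small domains of the cell surface and of endosomes. The genes followed here are all those on the array named TSPAN with a number, together with CD9, CD37, CD53, CD63, CD81, CD82 and CD151. Membership was set by gene name and not by the measured value of a gene, though earlier results of these data were known. They came to 29 genes, read by 39 probes, of 25972 named genes and 34127 probes on the array. CD82, also called KAI1 and known as a suppressor of metastasis, is the member that the study selected. To select genes, the study set IL-1β against control, and IL-1β with empagliflozin (Empa) against IL-1β. The arrays followed here, of IL-1β + Empa, were therefore part of that selection. The control and IL-1β arrays that it also needed are absent here.

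RNA came from HPTCs, human proximal tubular cells, of 2 cell lines. HK-2 carries the papillomavirus genes E6 and E7, which immortalised it, and RPTEC/TERT1 carries TERT, the catalytic subunit of telomerase. All cells went without serum and supplements for 24 h before they received IL-1β (10 ng/mL) together with Empa (500 nM) for 24 h. There were 2 arrays for HK-2 and 2 for RPTEC/TERT1, as labelled, which the methods describe as biological duplicates. The arrays show levels under IL-1β + Empa and no response to either agent.

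Some tetraspanins are widely expressed, such as CD63, which resides in late endosomes and exosomes, CD81 and CD9, which are found on many epithelia and on extracellular vesicles, and CD151, which binds laminin-binding integrins and whose loss is known to cause kidney disease. The TspanC8 members (TSPAN5, TSPAN10, TSPAN14, TSPAN15, TSPAN17 and TSPAN33) accompany the protease ADAM10 to the cell surface. TSPAN12 belongs to the Norrin receptor with FZD4 and LRP5, while CD37, CD53 and TSPAN32 are known from leukocytes.

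Each probe is a single stretch of 60 bases, and the files give its position on GRCh37. Shown here are the probes of the CD9, CD63 and CD81 transcripts, 3 broadly expressed members whose probes lie in coding sequence. The CD9 probe (chr12:6342625-6344426, plus strand) and the CD63 probe (chr12:56119667-56119950, minus strand) lie over 1802 and 284 bases of the genome, more than their own length, so each crosses a splice junction. Both fall in the part of the transcript that encodes the large extracellular loop. The CD81 probe (chr11:2418037-2418096, plus strand) ends with the stop codon of the protein, in capitals.
CD9 probe: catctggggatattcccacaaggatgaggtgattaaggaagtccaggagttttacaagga
CD63 probe: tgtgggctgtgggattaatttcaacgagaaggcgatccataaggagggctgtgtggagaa
CD81 probe: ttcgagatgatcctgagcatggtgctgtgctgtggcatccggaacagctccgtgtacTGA
The longest run of bases that probes of different members shared was 10 (TSPAN15 and TSPAN17). CD82 was read by 1 probe at chr11:44640896-44640955 on the plus strand of GRCh37. An annotation of that build was not used here, so the exon of this probe is not named.

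The bases before the transcription start are shown for 4 members that behaved differently, CD82 (steady between arrays) and CD9, TSPAN1 and TSPAN12 (the widest ranges among the members above background on every array). They are RefSeq sequences of GRCh38.p14, each 250 bases that end at the start, with the GC box GGGCGG of Sp1 on either strand in capitals. CD82 (chr11:44565413-44565662, plus strand), TSPAN1 (chr1:46174837-46175086, plus strand) and TSPAN12 (chr7:120858145-120858394, minus strand) have 1 start each in that table. Of the 4 starts listed for CD9, the one with the most GC boxes is shown (chr12:6200150-6200399, plus strand).
CD82 upstream: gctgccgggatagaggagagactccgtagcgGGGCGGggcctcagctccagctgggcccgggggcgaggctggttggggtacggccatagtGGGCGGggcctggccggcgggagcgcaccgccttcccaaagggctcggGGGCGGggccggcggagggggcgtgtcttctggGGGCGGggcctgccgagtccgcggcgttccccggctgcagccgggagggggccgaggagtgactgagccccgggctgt
CD9 upstream: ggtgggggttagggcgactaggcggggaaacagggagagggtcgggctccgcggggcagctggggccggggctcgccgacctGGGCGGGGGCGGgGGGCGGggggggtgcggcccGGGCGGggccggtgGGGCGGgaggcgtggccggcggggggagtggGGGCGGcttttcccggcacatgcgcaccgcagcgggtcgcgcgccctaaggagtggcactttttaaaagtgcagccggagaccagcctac
TSPAN1 upstream: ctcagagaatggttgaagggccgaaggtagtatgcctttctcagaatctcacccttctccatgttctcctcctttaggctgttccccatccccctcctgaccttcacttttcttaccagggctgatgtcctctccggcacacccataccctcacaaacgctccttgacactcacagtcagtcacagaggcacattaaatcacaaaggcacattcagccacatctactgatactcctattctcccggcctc
TSPAN12 upstream: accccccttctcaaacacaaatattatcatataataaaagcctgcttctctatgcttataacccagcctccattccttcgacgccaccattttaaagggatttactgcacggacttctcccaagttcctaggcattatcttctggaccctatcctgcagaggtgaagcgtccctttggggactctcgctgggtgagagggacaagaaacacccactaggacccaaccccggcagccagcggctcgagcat
The CD82 stretch held 4 GC boxes and was 77.2% G or C. The 4 CD9 starts held 6, 3, 0 and 0 GC boxes and were 76.8%, 76.8%, 52.8% and 44.8% G or C, so the one shown, chosen for its boxes, does not stand for them all. The TSPAN1 and TSPAN12 stretches held no GC box and were 51.2% and 50.8% G or C, against a median of 58.0% over the 35116 starts of the table. CG pairs numbered 26 in CD82, 4 in TSPAN1 and 8 in TSPAN12, against a median of 11.0, and 28, 29, 10 and 1 at the CD9 starts.

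RefSeq listed 41 starts for 21 of the 29 members. Motifs were searched on both strands of the whole listed window, which adds a short stretch after the start. GGGCGG was found at 26 of the 41 starts (63.4%) and at 45.0% of all starts. TGANTCA, the AP-1 motif, was found at 2 starts (4.88% against 7.71%), of CD63 and TSPAN10. The NF-κB consensus was found at 4 starts of CD63 and TSPAN4 (9.76% against 11.3%), and TATAAA at none of the 41 (11.5% of all starts). CD82, CD9, TSPAN1 and TSPAN12 held no match to the AP-1, NF-κB or TATAAA letters in these windows. Matches to the GC box and to the NF-κB consensus can overlap, and a match is a description of letters only.

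Levels are given as log2 of the processed signal over the 75th percentile of the array, so a level of 0 equals that percentile. A floor of -5.37 was set, and values at the floor have no order among themselves. Values of 4 arrays are listed in the order HK-2 replicate 1, HK-2 replicate 2, RPTEC/TERT1 replicate 1 and RPTEC/TERT1 replicate 2. A level of one gene is not compared with that of another, since probes differ in brightness. Normexp background correction and the deposited log2 values did not move all genes of an array alike. The median difference of all genes between HK-2 replicate 1 and replicate 2 was 0.062 as scaled here. It was 0.99 with normexp and 0.73 with the deposited log2 values. With normexp the HK-2 difference of CD63 fell from 1.60 to 0.41, while that of TSPAN2 rose from -1.22 to 2.73. That median therefore cannot be subtracted from the difference of a single member.

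The arrays did not resemble each other as labelled. Over the 16468 genes tested, HK-2 replicate 1 had a Pearson correlation across genes of 0.983 with RPTEC/TERT1 replicate 2 and of 0.847 with HK-2 replicate 2, as a description, since genes are not independent replicates. RPTEC/TERT1 replicate 1 had a correlation of 0.975 with HK-2 replicate 2 and of 0.833 with RPTEC/TERT1 replicate 2. The 22 tetraspanins tested differed by a median of 1.07 between the HK-2 arrays and 1.11 between the RPTEC/TERT1 arrays. Across the labels the same median was 0.094 (RPTEC/TERT1 replicate 2 against HK-2 replicate 1) and 0.21 (RPTEC/TERT1 replicate 1 against HK-2 replicate 2). The group names that follow are therefore those of the labels, no array was moved to another group, and pairs of single arrays are compared without a test.

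Scan day and replicate number coincide, with both replicate 1 arrays read on 1 day and both replicate 2 arrays on another. Between 59.18% and 64.89% of spots were well above background. The 75th percentile of the processed signal ran from 393.3 to 747.5, and the SD among spots of probes printed 10 times was 0.0814 to 0.139 on the log2 scale (median over probes). Among markers of proximal tubule, 5 of 10 were well above background on all 4 arrays, and CUBN and SLC22A6, an endocytic receptor and an organic anion transporter, on none. The epithelial genes KRT8, KRT18 and EPCAM were above background on every array. Because RNA was taken from whole cultures, fewer cells of a type and less RNA per cell cannot be told apart.

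Tetraspanin transcripts were well above background on every array for 19 of the 29 genes. TSPAN2, TSPAN8 and TSPAN19 were above background on 2 arrays. CD37, CD53, TSPAN7 and TSPAN18 were above background on 1 array, and TSPAN16 and TSPAN32 on none. TSPAN3 had no usable value, because its only spot was marked as uneven on every array. The 22 genes above background on at least 2 arrays were tested.

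**Figure D1:**
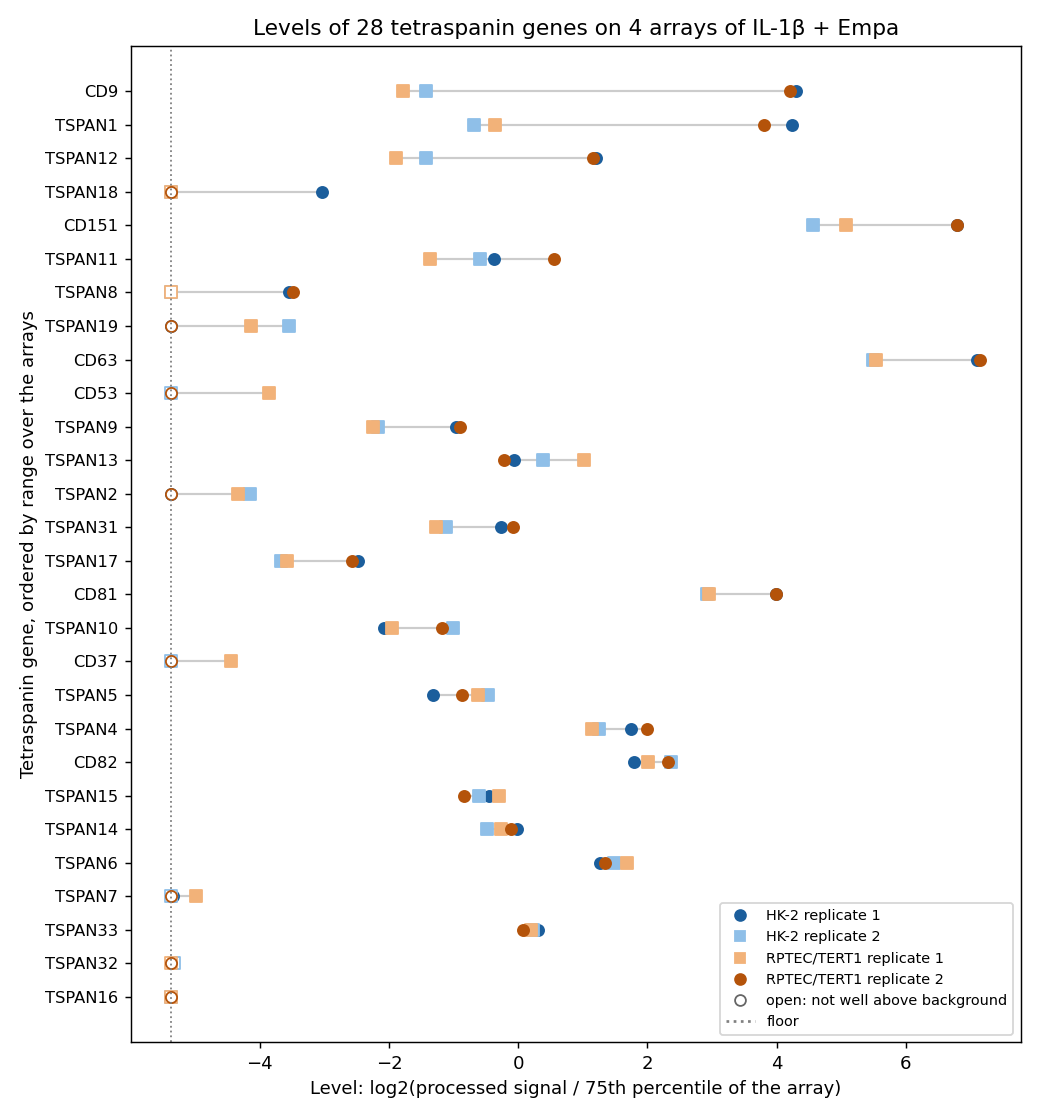
Level (log2 of the processed signal over the 75th percentile of the array) of 28 tetraspanin genes on each of the 4 arrays, with genes ordered by the range over the arrays, a grey line from the lowest to the highest array, open symbols for values not well above background and a dotted line at the floor of -5.37. CD9 spans 6.07 and TSPAN1 4.93, while CD82 spans 0.57.

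CD82 was among the steadier members. Its levels were 1.80, 2.36, 2.01 and 2.32 on the 4 arrays, a range of 0.57 or 1.48-fold. Both replicate 2 arrays lay above both replicate 1 arrays, and the arrays of the labelled cell lines overlapped. TSPAN10 was the other of the 22 members with that order, which held for 10.8% of all genes tested. For TSPAN10, whose probes disagree, the HK-2 difference turned from -1.06 to 0.77 with normexp and 0.34 with the deposited values, and the order was lost. The mean level was 2.08 ± 0.40 (SD, n = 2) in HK-2 and 2.17 ± 0.22 (SD, n = 2) in RPTEC/TERT1. HK-2 was 0.089 lower (difference -0.089, SE 0.47, 95% interval -1.37 to 1.19, adjusted p = 1 in limma, 2 arrays per label). CD82 was 0.22 lower in HK-2 among the replicate 1 arrays (difference -0.22), and among the replicate 2 arrays RPTEC/TERT1 minus HK-2 was -0.038. The difference between the labels changed sign without HK-2 replicate 1 (0.19) and without RPTEC/TERT1 replicate 2 (0.067). HK-2 replicate 2 exceeded HK-2 replicate 1 by 0.54 to 1.52 over the 7 ways of scaling, and both replicate 2 arrays stayed highest in all 7.

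No tetraspanin passed the test between the labelled cell lines. In limma 0 of the 22 members passed an adjusted p of 0.05, as did 0.0% of the 16468 genes tested. At an unadjusted p under 0.05 there were 0 members and 23 genes (0.14%). The arrays of the labels did not overlap for 1 member (4.55%) and for 7.17% of all genes. That member was TSPAN33, with levels of 0.30, 0.23, 0.20 and 0.069. It was 0.13 higher in HK-2 (SE 0.42, 95% interval -1.01 to 1.27, adjusted p = 1 in limma), close to the SD among repeated spots. The intervals of the members with wide ranges reached much farther, from -7.53 to 7.97 for CD9, so these arrays leave large differences between the lines undetectable.

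CD9, CD63, CD81 and CD151 showed another order from CD82. The CD9 levels were 4.30, -1.43, -1.78 and 4.21, which made CD9 52.9-fold higher on HK-2 replicate 1 than on replicate 2 and 63.2-fold higher on RPTEC/TERT1 replicate 2 than on replicate 1. The high arrays, those of RPTEC/TERT1 replicate 2 and HK-2 replicate 1, differed by 0.092. The levels of CD151 were 6.79, 4.57, 5.08 and 6.80, with the same arrays high and a difference of 4.63-fold in HK-2 and 3.29-fold in RPTEC/TERT1. CD63 stood at 7.10, 5.50, 5.54 and 7.15, or 3.03-fold and 3.06-fold apart. The high and low arrays of CD63 and CD151 were those of CD9. CD81 was read at 3.99, 2.92, 2.95 and 3.99, about 2.10-fold and 2.06-fold apart on the same arrays. With normexp background correction the HK-2 difference of CD81 turned to -0.11 and its RPTEC/TERT1 difference kept its sign, while those of CD9, CD63 and CD151 kept theirs under all 7 scalings. Their size did not hold with normexp. There the HK-2 differences on the log2 scale fell from 1.60 to 0.41 for CD63 and from 2.21 to 1.01 for CD151. For CD9 the fall was from 5.73 to 4.33. The median HK-2 difference of all genes was 0.99 with normexp, above that of CD63 and close to that of CD151. The second CD81 probe, left out because its spot on HK-2 replicate 2 was marked as an outlier, gave 4.74, 3.91 and 4.70 on HK-2 replicate 1, RPTEC/TERT1 replicate 1 and RPTEC/TERT1 replicate 2.

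The same order was seen in 9 members, CD9, CD63, CD81, CD151, TSPAN1, TSPAN8, TSPAN9, TSPAN12 and TSPAN17, which were over 1 higher (log2 scale) both on HK-2 replicate 1 than on replicate 2 and on RPTEC/TERT1 replicate 2 than on replicate 1. They are 40.9% of the 22 members tested, against 12.3% of all genes tested. Between the HK-2 arrays 12 members were over 1 apart in either direction (34.0% of all genes), and between the RPTEC/TERT1 arrays 14 were (40.4%). The opposite order was found in 2 members, TSPAN2 and TSPAN19, or 9.09%, against 11.4% of all genes. No member was over 1 higher, or over 1 lower, on replicate 1 than on replicate 2 in both labels (0.358% and 0.625% of all genes). The median member difference was 0.47 between the HK-2 arrays and 0.93 between the RPTEC/TERT1 arrays, where the medians of all genes were 0.062 and 0.092. The 9 became 5 with normexp and with the deposited log2 values (7.72% and 7.41% of all genes), and 7 with quantile normalization (12.2%). The count was 9 under the other 3 alternatives. With outlier spots kept the genes changed, as CD81 dropped out (1.15 in HK-2 and 0.92 in RPTEC/TERT1) and TSPAN3 entered (1.29 and 1.11). Each of these comparisons sets 1 array against 1 array, and the arrays compared are the ones that cross the labels.

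**Figure D2:**
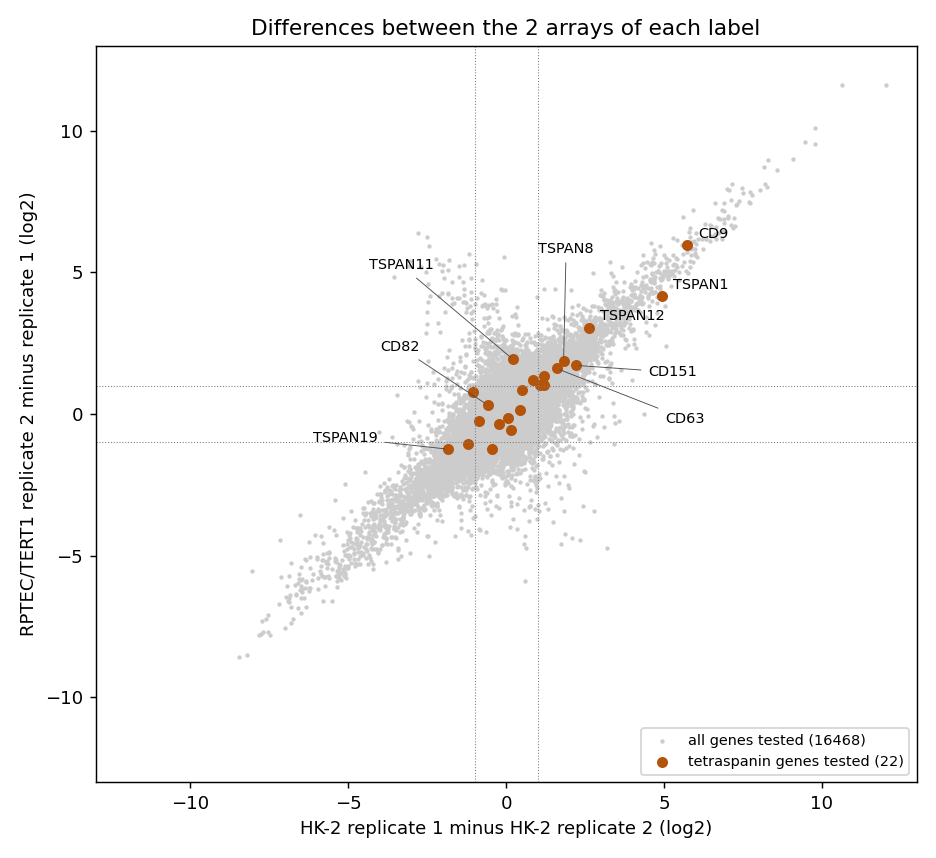
Difference in level (log2) between HK-2 replicate 1 and HK-2 replicate 2 on the horizontal axis against that between RPTEC/TERT1 replicate 2 and replicate 1 on the vertical axis, for the 22 tetraspanin genes tested (orange) over all 16468 genes tested (grey), with dotted lines at 1 and -1. CD9 (5.73 and 5.98), TSPAN1 and TSPAN12 lie far to the upper right, and CD82 (-0.57 and 0.31) lies near the centre.

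TSPAN1, an epithelial tetraspanin, was read at 4.24, -0.69, -0.36 and 3.81. It was 30.5-fold higher on HK-2 replicate 1 than on replicate 2 and 18.0-fold higher on RPTEC/TERT1 replicate 2 than on replicate 1. The ranges of 2 members, TSPAN1 and CD9, exceeded 4 on the log2 scale (9.09% of members tested and 4.06% of all genes). TSPAN9, known from platelets, had levels of -0.96, -2.17, -2.25 and -0.90, and was 2.32-fold and 2.55-fold higher on the same arrays as CD9. TSPAN8, a gene of gut epithelium and of several carcinomas, was at -3.55 on HK-2 replicate 1 and at -3.49 on RPTEC/TERT1 replicate 2, and not well above background on the others. Against the floor it was at least 3.54-fold and at least 3.69-fold higher within HK-2 and RPTEC/TERT1. Without that floor the RPTEC/TERT1 difference, 1.88 here on the log2 scale, was 0.99 with normexp and 0.81 with the deposited values, so the bounds hold for the processed signal alone. TSPAN31, a neighbour of CDK4 that is amplified with it in sarcomas, was at -0.27, -1.12, -1.27 and -0.084. It had the same order, with a difference of 0.85 in HK-2 and 1.19 in RPTEC/TERT1.

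Single markers of epithelium and proximal tubule moved with these members, and others of proximal tubule and fibroblasts moved against them. CDH1, the epithelial cadherin, was at -0.72 on HK-2 replicate 1 and -1.12 on RPTEC/TERT1 replicate 2 and at the floor on the other arrays. ANPEP, a brush border peptidase, was at 0.49 and 0.47 on those arrays and at the floor on the others. LUM, a fibroblast proteoglycan, ran the other way, at 0.23 on HK-2 replicate 2 and -0.30 on RPTEC/TERT1 replicate 1 and at the floor where CD9 was high. The 4 fibroblast markers summed to 0.105, 1.26, 0.911 and 0.101 times the 75th percentile on the 4 arrays, with COL1A2 and PDGFRB at the floor on all of them. CDH6, a cadherin of the proximal tubule, was at -3.26, 0.27, 0.86 and -3.49. The proximal tubule markers did not move as 1 class. They summed to between 5.77 (HK-2 replicate 2) and 20.5 (HK-2 replicate 1), a sum led by PAX8, a kidney transcription factor, at 4.13, 1.61, 2.79 and 3.73, whereas CDH6, LRP2 and GGT1 were lower on both arrays that were high in CD9. The GGT1 level averages probes that disagree on RPTEC/TERT1 replicate 2, which was lowest on a probe (-1.58) and highest on another (0.28). The 4 epithelial markers summed to between 12.1 and 28.0. Their part in the tetraspanin levels was not tested.

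TSPAN12 had levels of 1.21, -1.43, -1.89 and 1.16, 6.20-fold higher on HK-2 replicate 1 than on replicate 2 and 8.30-fold higher on RPTEC/TERT1 replicate 2 than on replicate 1. Its partner FZD4, the Frizzled receptor that binds Norrin, stood at 0.47, -2.36, -2.54 and 0.50. Both genes were high on the same arrays and low on the same arrays. LRP5, the co-receptor, was at -2.14, -1.93, -1.82 and -2.24, and NDP, which encodes Norrin, was not above background on any array.

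The TspanC8 members, all 6 well above background on all 4 arrays, did not share 1 order. One of them, TSPAN17, differed by over 1 in the order of CD9 in both labels (1 of 6, or 16.7%, beside 12.3% of all genes). The levels of TSPAN17 were -2.48, -3.67, -3.58 and -2.57, with the arrays high in CD9 also high here. Its RPTEC/TERT1 difference of 1.01 fell to 0.57 with normexp and 0.49 with the deposited values. This level averages 2 probes, the dimmer of which was above background on HK-2 replicate 1 alone. TSPAN5 had levels of -1.32, -0.47, -0.62 and -0.87, with HK-2 replicate 1 lowest and the labels overlapping, but its HK-2 difference turned from -0.85 to 0.11 with normexp. TSPAN15 was read at -0.45, -0.61, -0.29 and -0.84, within a range of 1.46-fold. ADAM10, the protease they accompany, stood at 0.62, -0.93, -1.19 and 0.69. ADAM10 was high on the same arrays as CD9.

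Probes of TSPAN10 and TSPAN14 did not move together. One TSPAN10 probe (chr17:79612546-79612605, plus strand) gave 0.25, 0.29, -1.62 and 2.10. The other, at chr17:79615719-79615778 on the plus strand, gave -4.40, -2.32, -2.29 and -4.46. The first was highest on RPTEC/TERT1 replicate 2 and the second was lowest there and not above background, so the gene mean of -2.08, -1.01, -1.95 and -1.18 stands for neither. The 4 probes of TSPAN14 averaged to -0.022, -0.48, -0.27 and -0.11. On 3 of them HK-2 replicate 1 exceeded HK-2 replicate 2, and on the probe at chr10:82281858-82281917 it was lower (2.30 and 2.43). TSPAN11, which spanned -0.37, -0.59, -1.37 and 0.55 on 1 probe, was not above background on its second. Its highest and lowest arrays were the RPTEC/TERT1 arrays.

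**Figure D3:**
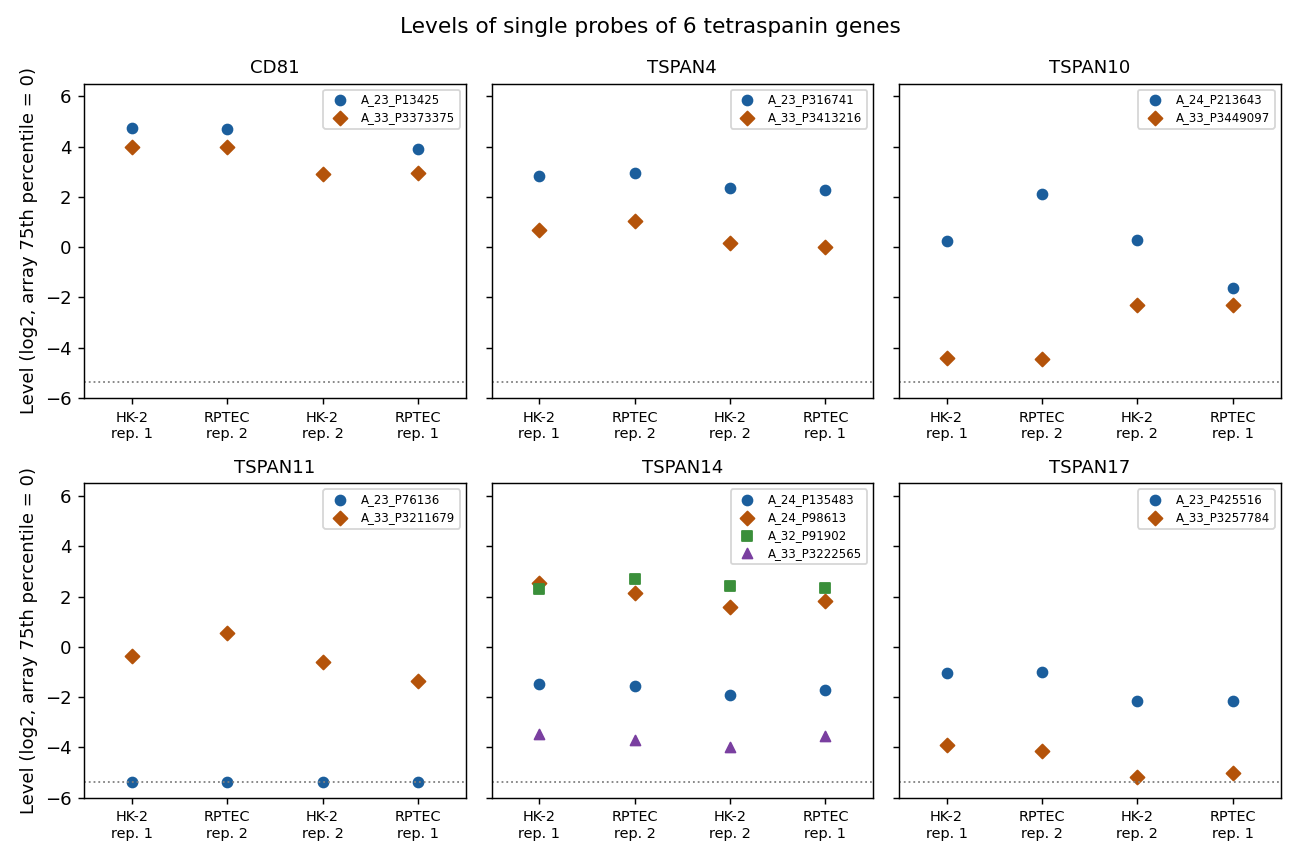
Level (log2, with the 75th percentile of the array at 0) of each probe of 6 tetraspanin genes on the 4 arrays, placed in the order HK-2 replicate 1, RPTEC/TERT1 replicate 2, HK-2 replicate 2 and RPTEC/TERT1 replicate 1, with the floor dotted and 1 symbol per probe. Both probes of TSPAN4 follow each other, while those of TSPAN10 run against each other.

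TSPAN4, which takes part in forming migrasomes, was at 1.74, 1.25, 1.14 and 1.99, and both of its probes had the same order of arrays. Its HK-2 difference of 0.49 turned to -0.42 with normexp. TSPAN6 was at 1.27, 1.48, 1.69 and 1.35, with a range of 1.33-fold. TSPAN13 was at -0.063, 0.39, 1.02 and -0.22, lowest on the arrays where CD9 was highest, with a difference over 1 in RPTEC/TERT1 alone (-0.45 in HK-2 and -1.24 in RPTEC/TERT1). TSPAN2, known from oligodendrocytes, was at -4.15 on HK-2 replicate 2, at -4.34 on RPTEC/TERT1 replicate 1 and not above background on the others, or at least 2.33-fold and at least 2.05-fold higher. TSPAN19 was at -3.55 and -4.13 on those arrays, at least 3.54-fold and at least 2.36-fold higher. For TSPAN2 and TSPAN19 the HK-2 difference turned its sign with normexp and with the deposited log2 values, so their order is not settled. TSPAN18 was above background on HK-2 replicate 1 alone (-3.03).

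Leukocyte tetraspanins were near the limit of detection. CD53 was at -3.85 and CD37 at -4.44 on RPTEC/TERT1 replicate 1, and neither was above background on the other arrays. The CD37 level is that of 1 probe. The other CD37 probe was not above background on any array (-5.01 on RPTEC/TERT1 replicate 1) and was left out. TSPAN32 was not above background on any array. The leukocyte markers summed to 0.457, 0.524, 0.619 and 0.375 times the 75th percentile, highest on that same array. Of these 7 markers, 3 were above background on all 4 arrays, among them PTPRC, the leukocyte antigen CD45 (-3.39, -3.62, -3.32 and -4.25). The others peaked elsewhere, CD14 on HK-2 replicate 2 (-2.33) and CORO1A on HK-2 replicate 1 (-2.82). The PTPRC level averages probes that disagree. A probe at -3.36, -3.38, -2.03 and -4.74 was highest on RPTEC/TERT1 replicate 1, and another at -3.41, -3.85, -4.61 and -3.76 was lowest there. Further PTPRC probes were at the floor on every array and were left out. SPI1 was at the floor on all 4 arrays, though its spot was marked as above background on HK-2 replicate 2. TSPAN7, known from neurons, was also above background on RPTEC/TERT1 replicate 1 alone, at -4.98. This array had the most members above background, 24 against 20 or 21 on the others. The part of the leukocyte markers in these levels was not tested.

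Among 24 genes whose products bind tetraspanins or work with them, 22 were above background on all 4 arrays and 23 were tested. None was called between the labels in limma, and 0 had an unadjusted p under 0.05. Of the 23, 6 were over 1 higher in the order of CD9 in both labels (26.1%) and HBEGF was over 1 lower, beside 12.3% and 11.4% of all genes. The laminin receptor chain ITGA6 was at -2.0, -4.55, -4.39 and -2.47. SDCBP, or syntenin, which takes part in loading exosomes, was at 3.76, 1.56, 1.61 and 3.25. Both were high on the arrays that were high in CD9, as were ITGB4 and CD44. ITGA3, the laminin receptor chain that CD151 binds most tightly, was at 1.96, 1.81, 2.08 and 1.79, and its partner ITGB1 was at 0.78, -0.34, 0.38 and 0.42. IGSF8, which binds CD9 and CD81, was at -0.95, -1.11, -0.97 and -0.95. PTGFRN, another partner of both, was at 0.84, 1.80, 1.62 and 0.89. The levels of IGSF8 were nearly equal on all arrays, and PTGFRN was lowest where CD9 was highest, with a difference below 1.

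**Figure D4:**
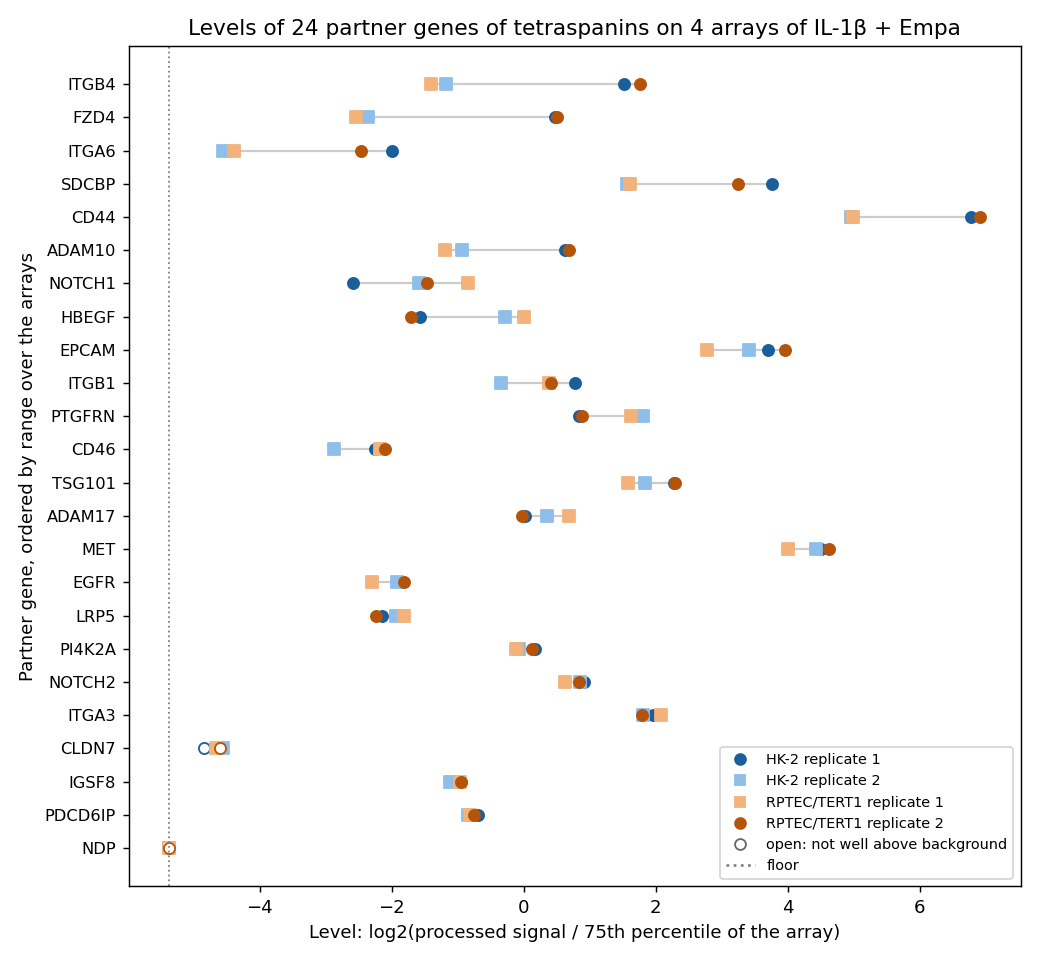
Level (log2 of the processed signal over the 75th percentile of the array) of 24 partner genes of tetraspanins on the 4 arrays, ordered by range, with open symbols for values not well above background and a dotted line at the floor. ITGB4, FZD4 and ITGA6 span the widest ranges, and IGSF8 and PDCD6IP are among the narrowest. The PDCD6IP level averages probes that ran against each other from HK-2 replicate 1 to replicate 2 (-0.28 to 0.18, and -1.11 to -1.86).

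Tetraspanins that carry other names were counted apart from the 29. ROM1, a retinal tetraspanin, was at -1.77, -2.60, -3.13 and -1.69, in the order of CD9. UPK1A, of the urothelium, was above background on 2 arrays, and UPK1B and PRPH2 were at the floor on every array.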

How the data were processed

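The authors deposited, for each array, Agilent Feature Extraction 9.5.3.1 spot intensities on a linear scale from 1-colour (Cy3) arrays, background-subtracted and not scaled between arrays. A table of log2 values for these spots was deposited too, whose ranks follow the median signal minus local background. Their column medians were 8.33, 7.14, 6.75 and 6.72 in the order used in the text, and their scaling and centring are unknown.

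Control and outlier spots were dropped. Each signal was scaled to its array's 75th percentile, floored at 0.0242 of it and taken to log2. Repeat spots were averaged per probe, and the gene level is the mean over probes with a value on all 4 arrays that were above background on at least 1. Probes were named by the array design. The transcripts of 38 of 39 member probes were found in the RefSeq table of GRCh38.p14 (names only), with the same symbol. HK-2 and RPTEC/TERT1 were compared with limma 3.58.1 (R 4.3.3) over the 16468 genes above background on at least 2 arrays, with Benjamini-Hochberg adjustment over all of them at 0.05. The step was checked on simulated data in which arrays of 1 group resembled each other. The arrays here did not, so that check does not cover their case.

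Members were taken by a rule on gene names, but that rule, the lists and the tests were chosen with earlier results of these data known. Values on every array are given for CD9, CD63, CD81, CD82, CD151, CD37, CD53, the TspanC8 genes, TSPAN12, and other members above background whose range exceeded 1 or whose probes disagreed. The methods and the labels name different RNA kits. The number of arrays limits the precision.

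Alternatives were normexp correction (offset 50), the deposited log2 values, quantile normalization, the array median, outlier spots kept, the brightest probe, 2 other filters on dim genes, a replicate block and leaving out each array.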

Additional observations from a re-analysis of the deposited data

Results flagged for a closer look

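For 11 tetraspanins the difference between replicate 1 and replicate 2 ran in opposite directions in the 2 labels by over 1 on the log2 scale. Replicate 1 minus replicate 2 was positive in HK-2 and negative in RPTEC/TERT1 for CD9 (5.73 and -5.98), TSPAN1 (4.93 and -4.17), TSPAN12 (2.63 and -3.05), CD151 (2.21 and -1.72) and TSPAN8 (1.82 and -1.88). The same held with smaller differences for CD63 (1.60 and -1.61), TSPAN9 (1.21 and -1.35), TSPAN17 (1.19 and -1.01) and CD81 (1.07 and -1.04). It ran the other way for TSPAN2 (-1.22 and 1.04) and TSPAN19 (-1.83 and 1.24). This difference between the labels was not tested, as each value compares 1 array with 1 array. With normexp the sign within HK-2 turned for CD81, TSPAN2 and TSPAN19, and with the deposited log2 values for TSPAN2 and TSPAN19.

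TSPAN3 was outside the comparisons because its only spot was marked as an uneven outlier on all 4 arrays. Kept, that spot read 4.93 and 3.64 on the first and second HK-2 array, and 3.54 and 4.65 on those of RPTEC/TERT1, with the same arrays high as for CD9.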

How the results depend on the processing

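Neither a tetraspanin nor any other gene passed the adjusted threshold in limma under any alternative, while the number of all genes at an unadjusted p under 0.05 ran from 3 to 241 (23 as reported) and that of tetraspanins was 0. The replicate block gave 0 calls and 5 genes at that unadjusted threshold. Deviations of same-numbered arrays from their label means correlated at -0.81 across genes, and the numbers, which coincide with the scan days, are not known to pair the arrays. With the crossed pairing, added after seeing the data, there were 0 calls and 183 such genes. The CD82 difference ran from -0.37 to 0.19 when 1 array was left out, turning positive without HK-2 replicate 1 (0.19) and without RPTEC/TERT1 replicate 2 (0.067), and from -0.48 to -0.065 under the other alternatives. Members whose arrays did not overlap between labels numbered 2 with normexp (1 as reported, beside 7.17% of all genes). Members past 1 between the RPTEC/TERT1 arrays numbered 8 with the deposited log2 values (14 as reported, beside 40.4% of all genes). The shares of all genes under these alternatives are not given, so these changes cannot be set apart from changes of all genes. The median of the members' mean levels was -0.23, moved to 2.89 with the array median by construction and to 0.23 with the brightest probe, and ran from -0.38 to 0.012 when 1 array was left out. Of 220 mean levels of single members under alternatives, 178 moved by less than the SD over arrays and 42 by more, 21 of these with the array median. For a dim gene the floor limits what can be read, and for CD82 each cell line has 2 arrays.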
